A study of Mus musculus with 81 samples.

Results

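The broad domains of the histone variant mH2A2 were compared between hippocampal area CA1 of mice taken 30 min after contextual fear conditioning and that of untrained mice. All 5 lists of domains with these labels were used, 2 from trained mice and 3 from untrained mice, of 81 samples in the series. The trained libraries held 63586 and 51899 domains, against 58223, 61938 and 60588 domains in the untrained libraries. The mice were C57BL/6J males of about 9 to 12 weeks. Trained mice were placed in a new chamber and received 3 foot-shocks by the study's methods (its results describe 1 for the behavioural test). Untrained mice stayed in their home cage, so handling, the new context and the shock cannot be told apart. Each library came from 1 mouse, whose chromatin was cut with micrococcal nuclease, precipitated with an antibody to mH2A2 and compared with the input of that mouse. The tissue held all the cells of CA1, neurons and glia together, so fewer cells carrying mH2A2 at a place and less mH2A2 per cell cannot be told apart. The ChIP libraries carry no RNA with which to check the tissue. In the RNA of other, intact mice of the series, all 14 CA1 pyramidal neuron markers, all 15 inhibitory neuron markers and all 12 astrocyte, 12 oligodendrocyte and 12 microglia markers had counts, so the region held each of these cell types.

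mH2A2 is a replacement variant of histone H2A, encoded by H2afy2. It carries a large globular macrodomain, joined to the histone fold by a flexible linker, that protrudes from the nucleosome. The variant and its paralogue mH2A1 (H2afy) are known from the inactive X chromosome, from silent developmental genes and from other repressed chromatin of differentiated cells. The study found both variants in broad domains and in narrow peaks. Only broad domains are described here, in which the reads of the ChIP exceeded those of the input over neighbouring 200-bp bins.

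The sequences below are short pieces of places named in the results. Each was taken from the mm10 genome (GRCm38.p6) and written 5′ to 3′ with every CpG dinucleotide, the site of DNA methylation, in capitals. The first 2 are bins of 200 bp inside domains whose enrichment was called higher in trained mice, an intron of Mrgpra2a at chr7:47437801-47438000 and a place near Zfp987 at chr4:146131201-146131400. The next bin, chr7:19806801-19807000, lies between genes in the longest domain shared by the libraries, near Nectin2. The fourth bin, chr11:61727801-61728000, lies between genes near Slc5a10 and was covered in all 3 untrained libraries and in neither trained library. The last 2 are the 250 bases before the starts of Nodal (chr10:61417722-61417971, plus strand) and Lhx1 (chr11:84525535-84525784, minus strand) from RefSeq, developmental genes that were covered in untrained mice. The CpG count was 0 in the Mrgpra2a and Zfp987 bins, 6 in the Nectin2 bin, 1 in the Slc5a10 bin, 3 before Nodal and 26 before Lhx1. Single bins do not stand for their domains. The whole Mrgpra2a domain had 7.5 CpG per kb and the whole Zfp987 domain 17.3, against 8.26 in the genome.
Mrgpra2a: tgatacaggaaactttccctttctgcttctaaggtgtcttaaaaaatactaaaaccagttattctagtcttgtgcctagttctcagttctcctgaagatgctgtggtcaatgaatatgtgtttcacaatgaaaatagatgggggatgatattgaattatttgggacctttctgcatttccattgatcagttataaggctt
Zfp987: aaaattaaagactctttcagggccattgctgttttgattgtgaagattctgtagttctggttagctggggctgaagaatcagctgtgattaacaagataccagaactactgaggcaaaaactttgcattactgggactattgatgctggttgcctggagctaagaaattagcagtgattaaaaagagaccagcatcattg
Nectin2: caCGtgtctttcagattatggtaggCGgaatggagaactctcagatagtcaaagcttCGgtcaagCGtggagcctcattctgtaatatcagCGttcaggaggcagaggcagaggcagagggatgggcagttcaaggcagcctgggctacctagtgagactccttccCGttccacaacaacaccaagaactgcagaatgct
Slc5a10: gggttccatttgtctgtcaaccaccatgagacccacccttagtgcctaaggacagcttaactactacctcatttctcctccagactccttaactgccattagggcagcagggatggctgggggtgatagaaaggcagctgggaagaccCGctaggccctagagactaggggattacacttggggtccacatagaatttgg
Nodal: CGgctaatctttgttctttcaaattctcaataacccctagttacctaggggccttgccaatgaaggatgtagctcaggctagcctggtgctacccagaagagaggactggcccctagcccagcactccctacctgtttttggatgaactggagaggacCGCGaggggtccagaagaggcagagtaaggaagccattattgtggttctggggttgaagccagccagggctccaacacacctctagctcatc
Lhx1: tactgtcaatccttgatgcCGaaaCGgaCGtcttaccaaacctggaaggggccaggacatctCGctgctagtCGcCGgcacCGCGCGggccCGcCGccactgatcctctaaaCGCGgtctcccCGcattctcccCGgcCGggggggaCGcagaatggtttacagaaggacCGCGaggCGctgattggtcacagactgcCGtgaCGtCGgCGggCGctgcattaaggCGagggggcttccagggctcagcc

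mH2A2 covered less of the genome in trained mice in the measured libraries, in domains that were shorter and not clearly fewer. Domains covered 12.2 and 8.52% of the genome in trained mice, against 12.3, 15.4 and 13.8% in untrained mice, a difference of -3.46 percentage points. The groups did not overlap, but trained 1 lay next to untrained 1 and most of the difference came from trained 2. Without trained 2 the difference was -1.61 percentage points. The median domain was 3600 and 3400 bp long in trained mice, against 4000, 4600 and 4200 bp in untrained mice, again with no overlap. Domains of 20 kb and over made up 2.11 and 0.71% of the domains in trained mice, against 2.42, 3.78 and 3.07% in untrained mice. At the other end, domains under 2 kb made up 12.8 and 12.3% in trained mice, against 8.63, 5.19 and 6.71% in untrained mice. The number of domains averaged 57743 ± 8264 in trained mice and 60250 ± 1880 in untrained mice (SD, n = 2 and 3), and the groups overlapped because trained 1 held the most domains of all and trained 2 the fewest. By the exact permutation test (two-sided), p was 0.2 for the covered share and for the median length and 0.8 for the number, where 0.2 is the smallest p that 2 mice against 3 can give.

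**Figure D1:**
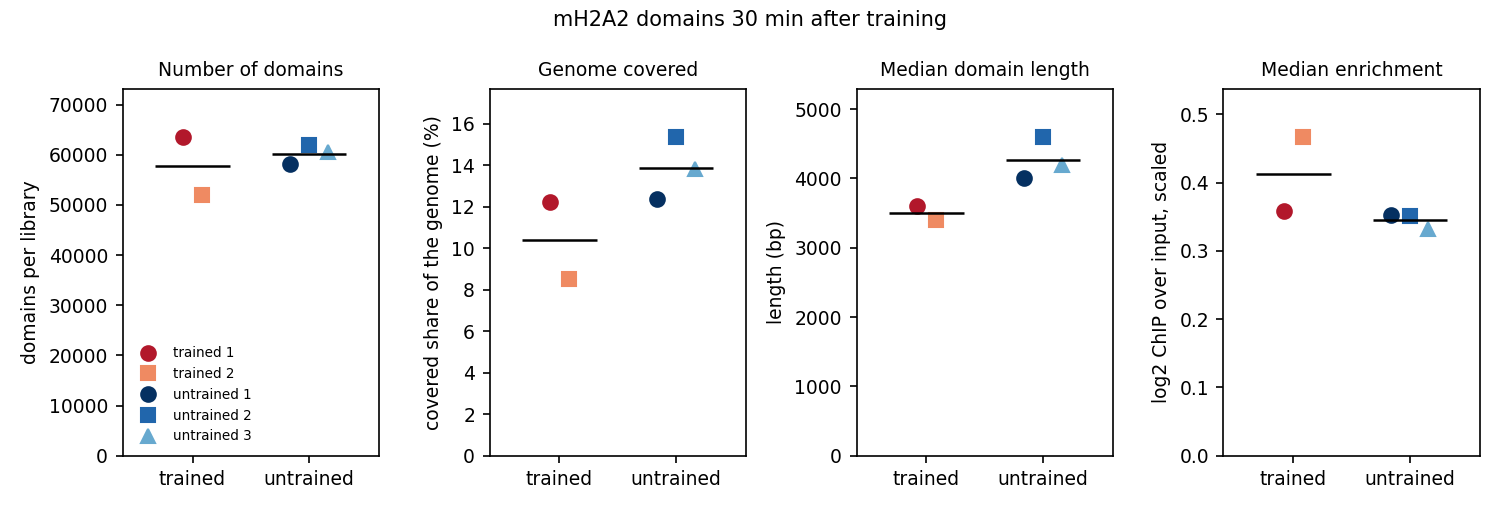
Number of domains, covered share of the genome (%), median domain length (bp) and median log2 enrichment of ChIP over input in the 2 trained and 3 untrained mH2A2 libraries, with 1 point per mouse and a line at the group mean. Trained 2 stands apart with 8.52% of the genome covered, against 12.2 to 15.4% in the other 4 libraries.

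Enrichment inside domains went the other way. The median log2 of ChIP over input, scaled by the caller for library size, was 0.36 and 0.47 in trained mice, against 0.35, 0.35 and 0.33 in untrained mice. The groups did not overlap, although trained 1 exceeded untrained 1 by less than trained 2 exceeded trained 1, and without trained 2 the difference was 0.01 in place of 0.07 (exact permutation test, two-sided p = 0.2). Strongly enriched domains, with a log2 above 1, numbered 5568 and 7284 in trained mice, against 3227, 1312 and 582 in untrained mice. Counted over these alone, the direction of the other measures turned. Domains above 2-fold covered 0.756 percentage points more of the genome in trained mice than in untrained mice, and were more numerous by 4719. The plain ratio of ChIP to input counts, not scaled for library size, had medians of 2.00 and 1.55 in trained mice, against 2.09, 1.73 and 1.71 in untrained mice, and the groups overlapped.

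Reads were counted inside domains only, so these sums move with the length covered and are not library depth. The domains of trained mice held 24.9 and 12.2 M ChIP reads, against 23.7, 26.9 and 23.7 M in untrained mice, so trained 2 had the fewest. Its domains also overlapped least with those of other mice, sharing 21.5 to 26.6% of the joint length with each of the other libraries, against 33.2 to 41.1% among the other 4. The total reads per library are not given in the files used here, and a part of depth in the lower cover of trained 2 was not tested. When an equal number of domains was taken from each library, the highest scores first, they covered 8.53 and 8.52% of the genome in trained mice, against 9.73, 12.1 and 10.8% in untrained mice, a difference of -2.36 percentage points (exact permutation test, two-sided p = 0.2).

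Domains lay in sequence of higher GC content than the genome in every library, at 48.2 and 46.2% in trained mice, against 47.5, 48.3 and 48.4% in untrained mice, where the genome had 41.7%. Intergenic sequence made up 46.1 and 57.6% of the covered bins in trained mice, against 50.5, 44.1 and 43.2% in untrained mice, and 53.7% of the genome. Bins covered in all 5 libraries (49.7 Mb, 1.88% of the genome) had a GC content of 48.9% and 12.1 CpG per kb, against 39.6% and 6.99 CpG per kb in bins covered in no library. Repeats, as soft-masked in the reference, took up 28.7% of the bins covered in all 5 libraries and 39.4% of those covered in none. Bins covered in both trained and no untrained library were few, 10.0 Mb, and had a GC content of 45.0%. Those covered in all 3 untrained and neither trained library came to 25.0 Mb with a GC content of 49.3%. In each of the 5 libraries the single domain with the most reads lay at the start of chromosome 9, in a run of predicted genes next to the centromere, and took between 0.873 and 1.81% of all ChIP reads in domains.

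Across windows of 100 kb no place changed by the test used. limma called 0 of 22070 windows at an adjusted p under 0.05, a background of 0% (284 windows were higher and 1533 lower in trained mice at an unadjusted p under 0.05), and the smallest adjusted p was 0.587. The covered share of both trained libraries lay below that of all 3 untrained libraries in 13.1% of windows and above it in 7.2%. The balance between the directions changed with GC content. Of 5 equal groups of windows ordered by GC content, 4414 windows each, domains in the GC-richest group covered a mean of 37.6 and 14.9% in trained mice, against 33.5, 52.2 and 48.0% in untrained mice. In the GC-poorest group, the means were 3.23 and 4.83% in trained mice, against 3.98, 2.43 and 2.07% in untrained mice. Trained libraries were below all untrained libraries in 30.1% of the GC-richest windows and in 1.5% of the GC-poorest, and above them in 0.408 and 13.4%. Trained 2 had the flattest profile along GC content, and the part of base composition in the differences between groups was not tested.

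**Figure D2:**
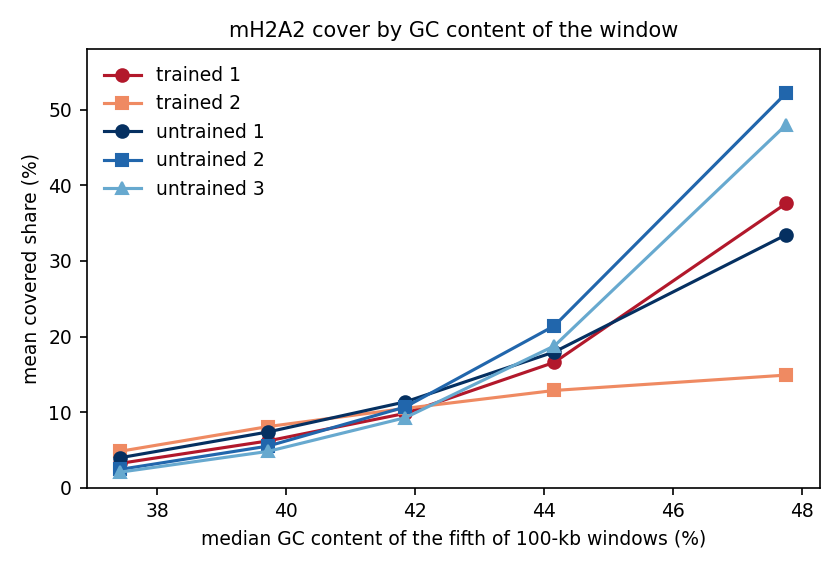
Mean covered share of 100-kb windows (%) in each mH2A2 library against the median GC content (%) of each of 5 equal groups of windows, with 1 line per mouse. In the GC-richest group the lines spread between 14.9% in trained 2 and 52.2% in untrained 2, and untrained 1 (33.5%) lies below trained 1 (37.6%).

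The windows with the smallest p held genes, and their cover was lower in trained mice. At chr11:61700001-61800000, which holds the sugar transporter gene Slc5a10 and the autophagy kinase gene Ulk2, cover was 0 and 0% in trained mice, against 26.8, 35.0 and 32.0% in untrained mice. A window in Sorl1 (chr9:42000001-42100000), the sorting receptor of the amyloid precursor protein, had 0 and 0% in trained mice, against 23.6, 32.0 and 27.8% in untrained mice. The window of Ubac1 and Nacc2 (chr2:26000001-26100000) had 8.0 and 14.0% in trained mice, against 55.8, 59.0 and 67% in untrained mice. In each of these the groups stood well apart, yet the adjusted p was 0.587 in all 3. On the other side, a window in Nbas (chr12:13500001-13600000), which takes part in transport from Golgi to endoplasmic reticulum, had 8.8 and 16.2% in trained mice and 0% in all 3 untrained mice. The window of the Paneth cell defensin genes Defa26, Defa17 and Defa34 (chr8:21600001-21700000) had 8.6 and 16.8% in trained mice and 0% in all 3 untrained mice. In the separate experiment taken 1 h after training, the Slc5a10 and Ulk2 window had 25.8, 36.4 and 28.6% in trained mice, against 26.4, 38.6 and 32.2% in untrained mice, and these groups overlapped.

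Where all 5 libraries carried a domain, the log2 of the domains called there was higher in trained mice. Merging bins covered in at least 2 libraries gave 80447 domains with a median length of 3.4 kb, and 5968 of them were covered over at least 50% of their length in every library. The median log2 enrichment over these 5968 was 0.72 and 0.76 in trained mice, against 0.59, 0.53 and 0.41 in untrained mice, so that the groups did not overlap. Each value is the length-weighted log2 of that library's own covering domains, whose extent differed between libraries. In every library the median log2 was higher in domains under 2 kb (0.53 to 0.74) than in those of 20 kb and over (0.20 to 0.70). The part of domain length in the difference between groups was not tested. In 41.3% of shared domains both trained libraries lay above all untrained libraries and in 4.29% below. limma called 6 of the 5968 domains at an adjusted p under 0.05 (0.101%), all of them higher in trained mice. Since the median of all shared domains was itself higher by 0.20 on the log2 scale in trained mice, single domains are read against that shift. The size of the shift depended on trained 2. Without trained 2, 10070 domains passed the cover filter and the median difference was 0.06. Without trained 1, 7499 passed and it was 0.16. With all 5 libraries, each centred on its median, the split of the 5968 domains was 19.1% higher and 26.8% lower. Then 14 domains were called, 13 higher and 1 lower, with all 6 among them. The calls rest on single libraries. Without untrained 1, 1299 of 7239 domains were called by limma, and without any one of the other 4 libraries 0 were (1239 to 1560 higher and 4 to 32 lower at an unadjusted p under 0.05).

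Of the 6 called domains, 1 lay in a gene and 5 between genes. The domain in Mrgpra2a (chr7:47436601-47439400), a Mas-related receptor gene of a cluster expressed in sensory neurons, had a log2 enrichment of 2.22 and 2.37 in trained mice, against 0.78, 0.59 and 0.68 in untrained mice. Its difference of 1.61 ± 0.12 (SE) was the one with the smallest adjusted p of the limma fit, 0.0162. A domain near the zinc finger gene Zfp987 (chr4:146129801-146132800) had 1.68 and 1.68 in trained mice, against 0.64, 0.64 and 0.40 in untrained mice (limma adjusted p = 0.0424). The domain near the odorant receptor gene Olfr2 (chr7:106984601-106987000) had 1.34 and 1.39 in trained mice, against 0.34, 0.44 and 0.34 in untrained mice (limma adjusted p = 0.0424). The other 3 lay on chromosome 12, at chr12:3000001-3004000 next to the centromere and at chr12:22534001-22536600 and chr12:24351601-24353200, more than 145 kb from the nearest protein-coding gene. All 3 were higher by between 1.13 and 1.34 on the log2 scale. Where such regions carry near-identical copies, an aligner may place reads in more than one way, and values there are uncertain.

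The excess in trained mice grew with enrichment. Of 4 equal groups of shared domains ordered by mean log2, the highest had medians that were 1.35 and 1.35 in trained mice, against 1.07, 0.86 and 0.63 in untrained mice. In the lowest group they were 0.29 and 0.27 in trained mice, against 0.27, 0.34 and 0.28 in untrained mice, and the groups overlapped. Shared domains of at least 50% soft-masked sequence lay higher in both trained libraries in 54.2% of cases, against 36.7% of the other shared domains. Chromosome 7 alone held 1413 of the shared domains (23.7%), and chromosomes 4, 7, 12, 13 and 17 held 58.6%. On these 5 chromosomes the median log2 was 0.95 and 0.99 in trained mice, against 0.76, 0.62 and 0.47 in untrained mice. On all other chromosomes it was 0.45 and 0.49 in trained mice, against 0.41, 0.44 and 0.35 in untrained mice. The groups were formed from the mean of the same 5 libraries, and their order is a description only.

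**Figure D3:**
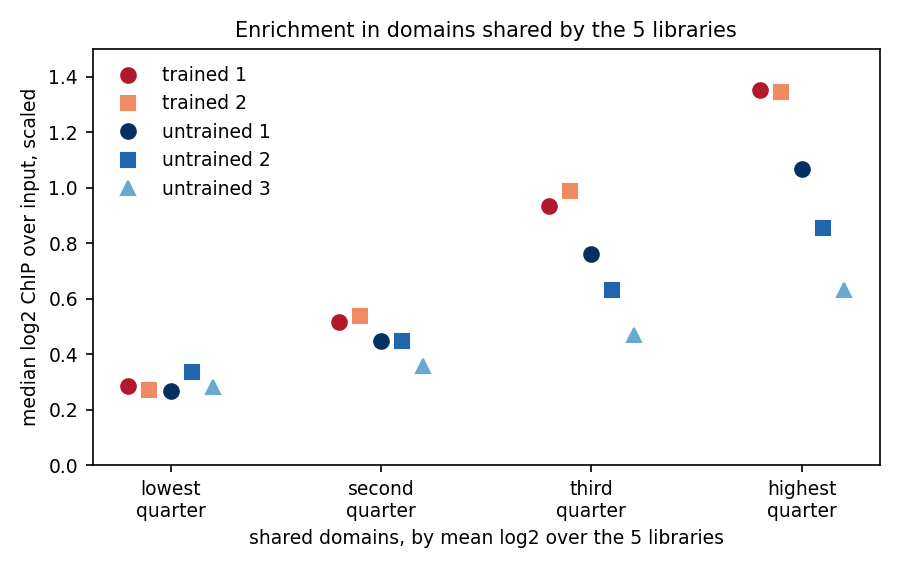
Median log2 enrichment of ChIP over input in the 5968 shared domains, in 4 equal groups by the mean log2 over the 5 libraries, with 1 point per mouse. In the highest group the trained libraries stand at 1.35 and 1.35, above 1.07, 0.86 and 0.63 in the untrained libraries, and in the lowest group the points overlap.

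The longest shared domain spanned 180.6 kb of chromosome 7 (chr7:19716601-19897200) and held the adhesion genes Nectin2, Bcam, Ceacam16 and Ceacam19 with the regulator genes Bcl3 and Cblc. It was covered over at least 94% in every library, and its log2 enrichment was 0.96 and 0.80 in trained mice, against 0.70, 0.78 and 0.53 in untrained mice (limma adjusted p = 0.338). A domain of 131.4 kb over Bmp7 (chr2:172841201-172972600), a growth factor of the TGF-beta family, had 0.31 and 0.16 in trained mice, against 0.28, 0.48 and 0.34 in untrained mice. Long domains were thus present in both groups, and limma called neither of these (adjusted p = 0.338 and 0.54).

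Chromosomes differed far more from one another than trained mice did from untrained mice. Chromosome 7 was covered most, over 26.2 and 20.5% in trained mice, against 25.2, 29.4 and 27.3% in untrained mice. Chromosome 3 was covered least of the autosomes, over 5.96 and 5.81% in trained mice, against 7.74, 7.84 and 6.07% in untrained mice. The sex chromosomes were nearly bare. X had 0.242 and 0.328% cover in trained mice, against 0.282, 0.243 and 0.212% in untrained mice, and Y had at most 0.214% in any library. The mice were male, with a single copy of each sex chromosome and no inactive X, and the caller judges a bin against the average over the genome, so the low cover of X and Y and the copy number cannot be told apart. On 9 of 21 chromosomes both trained libraries lay below all untrained libraries and on 0 above, with 12 overlapping (exact permutation test, two-sided, smallest adjusted p over the chromosomes 0.467, unadjusted p never below 0.2). Each library's share taken relative to its own genome-wide share left 4 chromosomes lower (2, 5, 8 and 10) and 3 higher (7, 17 and 18) in trained mice. The widest spread was on chromosome 11, the autosome with the highest GC content, with 17.1 and 7.99% in trained mice, against 15.2, 25.3 and 22.9% in untrained mice.

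**Figure D4:**
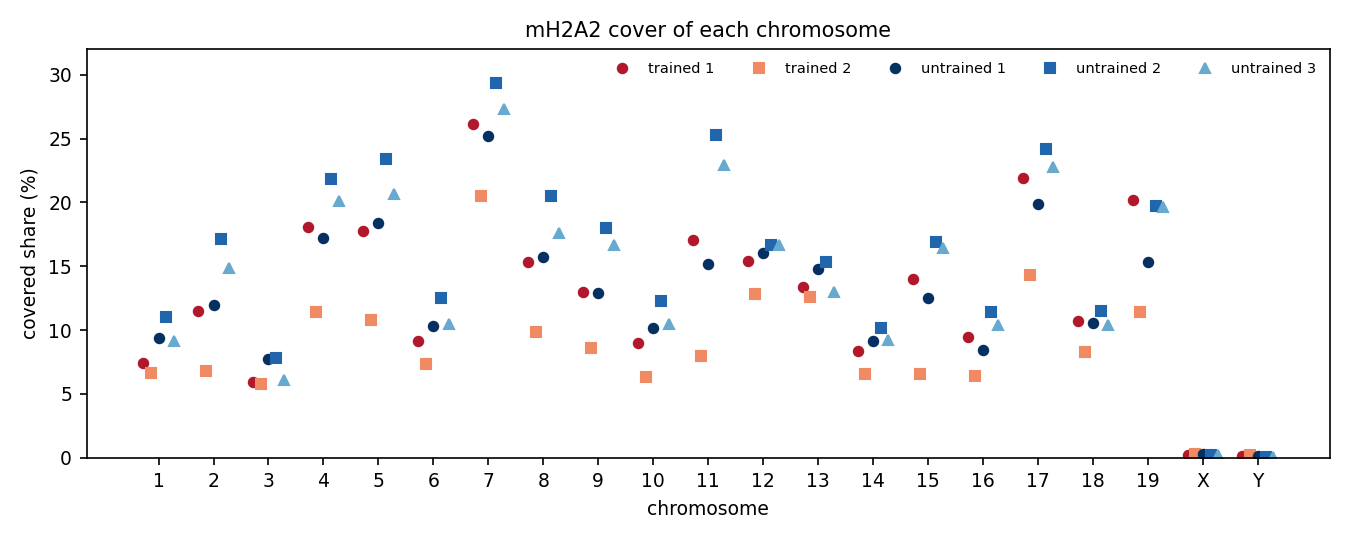
Covered share (%) of each chromosome in the 2 trained and 3 untrained mH2A2 libraries, with 1 point per mouse. Chromosome 7 is highest in every library (20.5 to 29.4%), X and Y lie near 0, and trained 2 is lowest on every autosome.

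Hox genes and developmental transcription factors had the highest mean cover over the 5 libraries of the 45 classes, followed by microglia markers and cytochrome P450 genes. Hox clusters, whose homeodomain factors pattern the body axis, were covered over a mean of 59.5 and 47.4% of the gene body in trained mice, against 61.4, 73.4 and 60.2% in untrained mice. Developmental transcription factors, such as Nkx2-5 of the heart and Tlx3 of spinal neurons, had 55.8 and 34.8% in trained mice, against 61.6, 68.8 and 55.9% in untrained mice. Cytochrome P450 genes, enzymes of drug and steroid metabolism, had 48.4 and 43.0% in trained mice, against 51.0, 48.0 and 47.1% in untrained mice. Protein-coding genes as a whole had 25.7 and 12.3% in trained mice, against 22.2, 33.0 and 29.6% in untrained mice, so these classes lay above it in all 5 libraries. Olfactory and vomeronasal receptor genes, which serve smell and pheromone sensing, were covered less than the average gene in every library but trained 2. Vomeronasal receptors had 12.7 and 20.1% in trained mice, against 14.8, 11.0 and 10.2% in untrained mice. Where they were covered, the mean log2 over the covered bins was 1.02 and 1.08 in trained mice, against 0.80, 0.66 and 0.55 in untrained mice.

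Cover of 11 of 45 classes was lower in both trained libraries than in all untrained libraries, of 0 classes higher, and the mean was lower in 40 (exact permutation test, two-sided, smallest adjusted p over the classes 0.474). CA1 pyramidal neuron markers had 34.2 and 8.14% in trained mice, against 46.2, 55.1 and 52.0% in untrained mice. Ionotropic glutamate receptor genes, for the receptors of excitatory synapses, had 27.8 and 9.49% in trained mice, against 28.6, 38.5 and 36.7% in untrained mice. GABA-A receptor subunit genes were sparsely covered, with 7.44 and 4.06% in trained mice, against 9.09, 12.8 and 11.5% in untrained mice. These 3 neuronal classes, skeletal muscle genes and small nuclear RNA genes stayed lower in trained mice after division by the genome-wide share. Other neuronal classes overlapped on that scale. Potassium channels had 2.87 and 1.95 in trained mice, against 2.68, 3.08 and 3.12 in untrained mice. Voltage-gated sodium and calcium channels had 3.10 and 1.81 in trained mice, against 3.00, 3.07 and 3.31 in untrained mice. Clustered protocadherins and zinc finger genes lay higher on that scale. Trained 2 alone was far below the others in many classes. Microglia markers had 56.4 and 15.9% in trained mice, against 57.5, 63.0 and 55.3% in untrained mice.

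**Figure D5:**
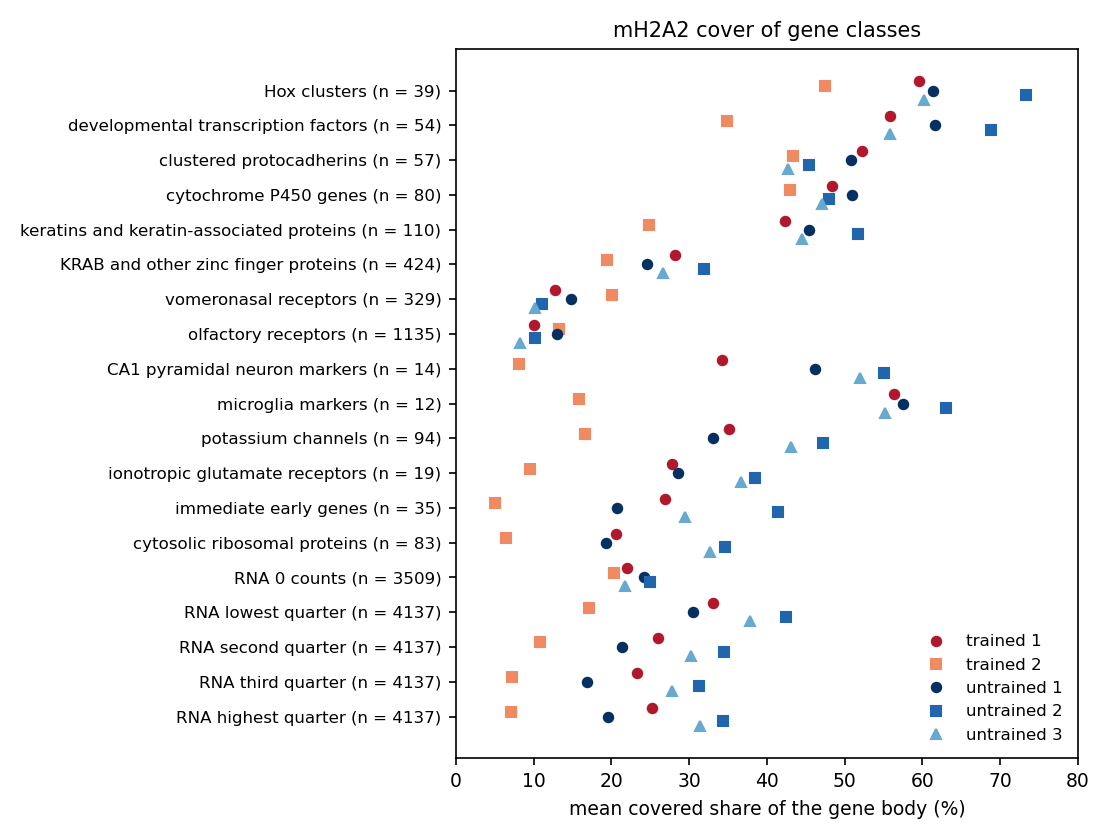
Mean covered share of the gene body (%) for 19 gene classes in each mH2A2 library, with the number of genes in parentheses and 1 point per mouse. Hox clusters lie between 47.4 and 73.4%, olfactory receptors between 8.18 and 13.3%, and trained 2 falls apart from the other 4 libraries in most classes of expressed genes.

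Cover of silent genes varied less between libraries than that of expressed genes. Genes were ordered by their RNA in 3 untrained intact mice of the series. Genes with 0 counts had 22.1 and 20.3% cover in trained mice, against 24.2, 24.9 and 21.8% in untrained mice, the narrowest range of these classes. Of 4 equal groups of the other genes ordered by RNA per length, the highest had 25.3 and 7.03% in trained mice, against 19.6, 34.3 and 31.4% in untrained mice, and trained 1 lay within the untrained range. The 15 genes whose RNA was induced 1 h after training in other intact mice (edgeR, adjusted p under 0.01), among them Arc, Fos, Egr1, Egr2, Nr4a1 and Junb, had 25.9 and 3.82% in trained mice, against 20.0, 33.8 and 27.1% in untrained mice. Of these 15 genes, 0 gene bodies were called in the limma fit, where 1.69% of all genes with any cover were. In 2 of the 15, Egr2 and Ipmk, both trained libraries lay below all untrained libraries. The same held for 13.8% of all protein-coding genes with any cover, so the list does not stand out. The whole set of 35 immediate early genes had 26.8 and 5.04% in trained mice, against 20.8, 41.5 and 29.5% in untrained mice. The groups of both lists overlapped because of trained 1. The RNA list itself depends on single libraries, with 1 gene called without RNA library trained 1, 2 without trained 2 or untrained 3, and 255 without untrained 2.

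Cover of single activity-induced genes often turned on 1 library. Of the genes described next, the study assayed Arc, Fos, Gria4 and Fabp1 for mH2A2 by ChIP at single promoters in hippocampus. It reported signal above IgG at each with at least 1 antibody. The study assayed Gadd45b for mH2A1 in cultured neurons. Npas4, Egr1, Egr2 and Fosb were added as activity-induced genes. Arc, which encodes a synaptic capsid-like protein that is induced by activity, was covered over its whole gene body and promoter (2 kb on each side of the start) at 100 and 0% in trained mice and at 100% in all 3 untrained mice. Npas4, an activity-induced transcription factor of neurons, had 100 and 61.2% of its body covered in trained mice and 100% in all untrained mice, and its promoter had 100 and 0% in trained mice, against 80, 100 and 100% in untrained mice. Fabp1, a fatty acid binding protein of liver, had 96.7 and 100% of its body covered in trained mice, against 100, 100 and 77.0% in untrained mice. Only trained 2 lacked cover of Arc, and trained 1 equalled the untrained mice. The promoter of Egr2, a zinc finger factor, had 65 and 0% in trained mice, against 88.1, 93.1 and 88.1% in untrained mice (limma adjusted p = 0.773). Gadd45b, a gene of DNA repair and demethylation that was added after its values were seen, had 0 and 0% of its body covered in trained mice, against 0, 94.0 and 94.0% in untrained mice. Fos was covered in no library, and Fosb had body cover in untrained 2 alone (77.6%). Egr1 had body cover in trained 2 alone, over 38.7%, and Gria4, an AMPA receptor subunit, had at most 1.32% of its body covered.

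Over gene bodies, limma called 568 of 33604 genes with any cover (1.69%), 385 lower and 183 higher in trained mice. These calls rest mainly on short genes that lay wholly inside or outside a domain. The called genes had a median length of 960.5 bp, against 7702 bp for all tested, and 399 of them had the same value in every mouse of each group, so the spread was 0. Without genes of that kind 0 genes were called by limma (213 higher and 1138 lower at an unadjusted p under 0.05), and with genes of at least 5 kb only 11 were. Both alternatives were chosen after seeing the data. Single libraries moved the count too, to 3172 without trained 1, 2187 without trained 2, 1378 without untrained 1 and 881 without untrained 3. Both trained libraries lay below all untrained libraries at 9.9% of the genes and above at 3.17%. Among 162 called protein-coding genes, 127 were lower and 35 higher.

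Among protein-coding genes of at least 5 kb, those with the smallest p and lower cover in trained mice were Erfe, Mnx1, Mrgpre, Olfr70, Ppp1r26, Tm6sf2, Lhx1, Mybbp1a, Nodal and Stk11ip. Erfe, the hormone erythroferrone that lowers hepcidin, and Mnx1, a homeobox factor of motor neurons, were covered over 0 and 0% in trained mice and over 100% in all 3 untrained mice (limma adjusted p = 0.000847 each). Lhx1, a LIM homeobox factor of early development, had 0 and 0% in trained mice and 90.1% in all 3 untrained mice. Nodal, a TGF-beta ligand that sets the left-right axis, had 0 and 0% in trained mice, against 89.1, 89.1 and 86.4% in untrained mice. Its promoter, printed above, was covered over 0 and 0% in trained mice and over 100% in all 3 untrained mice, and that of Lhx1 over 0 and 38.4% in trained mice and 100% in all 3 untrained mice. Such a value records whether a domain was called over the gene, not how far its occupancy changed.

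Genes with higher cover in trained mice were Ifit1bl1, Xbp1, Tchh, Olfr690, Olfr1387, Tmem52b, Olfr473, Mrgprb2, Zfp54 and Olfr714. Ifit1bl1, of the family of interferon-induced Ifit genes, was covered over 100 and 100% in trained mice and 0% in all 3 untrained mice. Xbp1, the transcription factor of the unfolded protein response, had 57.3 and 53.5% in trained mice and 0% in all 3 untrained mice (limma adjusted p = 0.00887). The adjusted p-values of single gene bodies given here all come from the fit over all genes. With genes lacking spread left out, the smallest adjusted p of the limma fit was 0.319. Of the 10 genes, 4 encode odorant receptors and 1, Mrgprb2, encodes the Mas-related receptor of mast cells. Families of this kind carry near-identical copies, and reads shared between copies leave their cover uncertain.

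Promoters gave 144 calls of 30540 (0.472%), 136 lower and 8 higher in trained mice, of which 134 had no spread inside either group, and limma called 0 without these (350 higher and 1162 lower at an unadjusted p under 0.05). The count was 2780 without trained 1, 2413 without trained 2, 471 without untrained 1 and 0 by limma without untrained 2 or untrained 3 (633 higher and 1861 lower at an unadjusted p under 0.05 without untrained 3). Both trained libraries lay below all untrained libraries at 7.13% of promoters and above at 3.15%. The promoters of Aplp1, a homologue of the amyloid precursor protein, of Capn1, the calcium-dependent protease calpain-1, and of Chrnd, a subunit of the muscle acetylcholine receptor, were covered over 0 and 0% in trained mice and 100% in all 3 untrained mice (limma adjusted p = 0.0282 each). The gene body of Aplp1 differed less, with 79.8 and 0% in trained mice and 100% in all 3 untrained mice (limma adjusted p = 0.728). On the higher side, the promoter of Dpp10, an auxiliary subunit of Kv4 potassium channels, had 70.0 and 70.0% in trained mice and 0% in all 3 untrained mice (limma adjusted p = 0.0991).

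Within classes, members moved in both directions. Of 225 vomeronasal receptor genes with any cover, 14.7% lay higher in both trained libraries than in all untrained libraries, and of 582 olfactory receptor genes 8.25%, where 3.24% of protein-coding genes did. These 2 classes had a GC content of 37.4 and 37.5%, within the range of the GC-poorest group of 100-kb windows (34.0 to 38.6%). Of all windows in that group 13.4% lay higher, against 7.2% of windows of any GC content. Windows and gene bodies are unlike units, and gene bodies of like GC content were not compared. Whether the shares are particular to these families was not tested. Vmn1r124 and Vmn1r64, pheromone receptors of under 1 kb, were covered over 100 and 100% in trained mice and 0% in all 3 untrained mice (limma adjusted p = 0.000847 each). Among potassium channels 24.7% lay lower, where 14.9% of protein-coding genes of at least 5 kb and 13.8% of all protein-coding genes did. Kcna3, a Shaker channel, was an exception with 85.8 and 100% in trained mice and 0% in all 3 untrained mice (limma adjusted p = 0.0461). Acta1 and Tnni2, actin and troponin of skeletal muscle, had 0 and 0% in trained mice and 100% in all 3 untrained mice. Of the markers of CA1 neurons, Slc17a7, the vesicular glutamate transporter of excitatory neurons, had 35.6 and 0% in trained mice and 100% in all 3 untrained mice (limma adjusted p = 0.202). Wfs1, a protein of the endoplasmic reticulum, had 36.4 and 0% in trained mice, against 100, 100 and 75.3% in untrained mice (limma adjusted p = 0.525).

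Against mH2A1, measured in the same 5 mice with the same inputs, mH2A2 covered less of the genome in each mouse. The difference of mH2A2 minus mH2A1 was -0.05 and -4.10 percentage points in trained mice, against -1.59, -0.35 and -1.62 percentage points in untrained mice. The difference of trained from untrained mice was -0.887 percentage points (exact permutation test, two-sided p = 0.8) and turned to 1.14 without trained 2. Per window, limma called the difference between the variants changed by training in 0 of 23033 windows (245 higher and 410 lower at an unadjusted p under 0.05). Fitted alone, mH2A1 gave 41 called windows of 21975, all lower in trained mice, where mH2A2 gave 0 of 22070. That one variant passed and the other did not is not shown to be a difference by the test above. Lower cover in trained mice was not particular to mH2A2. Both trained libraries lay below all untrained libraries on 13 chromosomes for mH2A1 and on 9 for mH2A2, and above on 1 and 0. Among the 45 gene classes they lay below in 33 for mH2A1 and 11 for mH2A2, and above in 2 and 0.

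At 1 h after training, in other mice, mH2A2 domains covered 14.1, 11.7 and 16.5% of the genome in trained mice, against 16.8, 16.3 and 15.5% in untrained mice (exact permutation test, two-sided p = 0.3, smallest possible 0.1). Their median length was 3600, 3800 and 3800 bp in trained mice, against 4400, 4400 and 4200 bp in untrained mice, and the groups did not overlap (exact permutation test, two-sided p = 0.1). The median log2 enrichment was 0.59, 0.55 and 0.55 in trained mice, against 0.38, 0.53 and 0.50 in untrained mice, again with no overlap (exact permutation test, two-sided p = 0.1). Shorter and more enriched domains in trained mice were thus measured at both times. limma called 0 of 22600 windows at 1 h (41 higher and 315 lower at an unadjusted p under 0.05). The interaction of training with experiment, which asks whether 30 min and 1 h differ, called 0 of 23339 windows (357 higher and 492 lower at an unadjusted p under 0.05).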

How the data were processed

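Micrococcal nuclease ChIP of mH2A2 was analysed from CA1 of 2 trained and 3 untrained mice, with mH2A1 of the same mice, mH2A2 at 1 h and RNA counts of other mice beside it. The authors trimmed reads, aligned them to mm10 with Bowtie2 and called broad domains per library against its own input with epic2 at an FDR under 0.05 (the submitters' processing notes name SICER). Per the file headers, each deposited domain has ChIP and input read counts, a p-value with its FDR, a score and a log2 fold of ChIP over input scaled for library size; the score is 100 times that log2. RNA values are deposited as raw counts per gene that the authors aligned with STAR and counted with featureCounts, in 24500 rows, of which 27 had symbols turned into dates.

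Domains were laid on 200-bp bins of GRCm38.p6 (2648 Mb called) with GENCODE mouse M21 genes. Covered shares were taken over 100-kb windows, chromosomes, gene bodies and promoters (2 kb on each side of the start), and transformed by the arcsine of the square root. Consensus domains were bins covered in at least 2 of 5 libraries, merged. The length-weighted log2 of each library's own covering domains was tested where at least 50% was covered in all 5. limma 3.58.1 in R 4.3.3 was fitted over all tested features with Benjamini-Hochberg adjustment at 0.05, and single values were compared by exact permutation over mice (scipy 1.17.1). RNA was tested with edgeR 4.0.16, with DESeq2 1.42.0 as an alternative. The scripts were tested on simulated data. Named genes were to be those the study followed by ChIP (the list drawn up held Arc, Fos, Gria4 and Fabp1 of these, lacked Gadd45b, and held Npas4, Egr1, Egr2 and Fosb, which were not), with the 10 protein-coding genes of at least 5 kb with the smallest p per direction and fit, up to 4 members per class, and the 5 windows and domains with the smallest p per direction, the longest and the most enriched. Members, classes and lists were chosen with earlier results of these data known. By the study's methods cage mates shared a test group, and p-values measure the spread between these samples only. Alternatives were stricter FDR and fold filters, other windows and promoters, centring, a replicate block and leaving out each library. Files of the knockdown experiments were not used here. A few items that the rule names are not reported here.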

Additional observations from a re-analysis of the deposited data

How the results depend on the processing

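With domains above 2-fold alone, the difference of trained from untrained mice reversed, to 4719 more domains, 0.756 percentage points more cover and a median length longer by 433 bp. Leaving out each library in turn gave differences of -8351 to 3336 in domain number, the highest without trained 2, -5.32 to -1.61 percentage points in covered share, -900 to -600 bp in median length, 0.01 to 0.12 in median log2 and -2.91 to 1.14 percentage points in mH2A2 minus mH2A1, the highest again without trained 2. Relative to each library's own cover, the chromosomes lower in trained mice numbered 4 in place of 9, and the gene classes 5 in place of 11. The windows had 0 calls under each alternative run.

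Called consensus domains numbered 83 with at least 90% covered, 14 after centring and 14 by the centred count ratio, and 0 to 1299 with 1 library left out. Called gene bodies numbered 0 without those lacking spread, 11 for genes of at least 5 kb, and 769 to 3172 with 1 library left out. Promoters called by limma numbered 0 after centring (597 higher and 969 lower at an unadjusted p under 0.05), 0 without those lacking spread, 860 with 500 bp on each side, and 0 to 2780 with 1 library left out. Genes induced in RNA numbered 47 with no filter on low counts, 362 with DESeq2, and 1 to 255 with 1 library left out. The cause of these changes was not tested.

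With the replicate number as a block, limma called 0 windows, 0 consensus domains (1205 higher and 13 lower at an unadjusted p under 0.05), 0 gene bodies (510 and 1569) and 0 promoters (540 and 1513), and edgeR called 0 induced genes. The deviation of trained 1 from its group mean correlated with that of untrained 1 at -0.45. Deviations of 2 trained libraries mirror each other, and trained 2 gave 0.45. This check therefore cannot decide whether samples of the same number belong together.

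Precision is limited by 2 trained mice, for which no exact p can be below 0.2. Total reads per library were not used here, so the depth of each is unknown.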
